A study of Mus musculus with 6 samples.

Results

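A list of 9 genes known for atrial expression was examined for acetylation of histone H3 at lysine 27 (H3K27ac) in nuclei of ventricular heart muscle cells, and was set by gene name: Myl4, Myl7, Sln, Bmp10, Kcnj3, Kcnj5, Nr2f1, Nr2f2 and Dkk3. All 9 symbols matched 1 of 21887 protein-coding genes in the RefSeq annotation of GRCm38.p6 (mm10). A peak was assigned to a gene when it overlapped the annotated gene body or the 20 kb on either side by at least 1 bp, the stretch called the window here. It was called a gene-end peak within 1 kb of either annotated end, an internal peak elsewhere in the gene body, and a flanking peak otherwise.

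The mark was profiled by CUT&RUN, in which an antibody directs a nuclease to cut out the chromatin it binds. Nuclei came from left ventricles of FVB mice aged 8 to 12 weeks and were sorted for PCM-1, a protein that collects around the nuclei of cardiomyocytes. The first group was wild type (WT, 3 libraries) and the other carried the Nppa-Nppb deletion, labelled HOM (3 libraries). The growth protocol also names Myh6-MerCreMer, nTnG and Sun1/sfGFP mice bred on FVB/N without tying these alleles to either group, and the labels give neither the ends of the deletion nor whether the libraries came from separate mice, so p-values measure a spread between samples that may be technical.

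Atrial and ventricular muscle share most of the contractile machinery but differ in several paralogs, ion channel subunits, secreted factors and transcription factors. The G protein-gated potassium channel built from the Kcnj3 and Kcnj5 products, for example, slows the atrium and pacemaker under vagal input, and the nuclear receptor encoded by Nr2f2 maintains atrial identity in the mouse. H3K27ac marks active promoters and enhancers, and a peak near a gene does not show that the gene is transcribed.

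The 6 peak lists differed widely in length. Values of a genotype are given in the order of replicates 1, 2 and 3. The WT lists held 21340, 72362 and 106605 peaks, and the HOM lists held 48102, 1462 and 15184. HOM replicate 2 stood apart, with 0.296 Mb covered by peaks against 4.54 to 55.7 Mb in the others and a median peak width of 84 bp against 232 to 291 bp. No member had a peak in it, so each of its member values is 0. WT replicate 1 and HOM replicate 1 also stood together, with 111 and 112 peaks in the first 80 Mb of chromosome Y against at most 5 in each other library. The marker genes of cardiomyocytes had peaks in all libraries but HOM replicate 2, with 10 of 10 marked in their windows and 8, 10, 10, 10 and 9 of 10 at a gene end.

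Of the 9 atrial genes, 6 carried some acetylation in their windows in at least 1 library, and 3 had no peak in any. The share of all protein-coding genes with a window peak in at least 1 library was 67.7%. A set of 3 genes, Kcnj5, Kcnj3 and Myl7, had a peak in each of the 5 longer lists, while 21% of protein-coding genes had one in at least 5 lists. Myl4 and Dkk3 had peaks in WT replicates 2 and 3 and HOM replicate 1, which are the 3 longest lists. Nr2f2 had a single short peak in WT replicates 2 and 3. Sln, Bmp10 and Nr2f1 had none, as had 32.3% of all protein-coding genes.

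The number of members with a window peak was 3, 6 and 6 of 9 across the WT libraries. Among all genes, the share was 31.7%, 57.4% and 66.1%. It was 5, 0 and 3 of 9 across the HOM libraries, against 47.1%, 3.14% and 25.2% of all genes. The order of these counts was that of list length, apart from ties. Peaks at an annotated end were fewer, at 1, 1 and 2 members in WT (11.5%, 31.8% and 42.2% of all genes) and 1, 0 and 1 in HOM (22.7%, 0.379% and 7.99% of all genes). Over all libraries 2 members, Kcnj5 and Myl4, the latter in WT replicate 3 alone, had a gene-end peak, against 43.9% of all genes. Internal peaks occurred at 5 members in at least 1 library (36.5% of all genes), flanking peaks at 2 (52.1%), and peaks anywhere in the gene body at 5 (49.9%). By library, internal peaks were found at 2, 5 and 5 members in WT (13.2%, 26.8% and 34.3% of all genes) and at 4, 0 and 2 in HOM (20.7%, 1.54% and 10.8% of all genes). Flanking peaks were found at 1, 1 and 2 members in WT (18.6%, 40% and 49.7% of all genes) and at 1, 0 and 1 in HOM (30.6%, 1.44% and 14% of all genes).

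The windows held 169 peaks in all, of which 130 were internal, 24 flanking and 15 at gene ends. By library they numbered 14, 46 and 64 across WT, then 35, 0 and 10 across HOM. Of the 24 flanking peaks, 23 overlapped another annotated gene or lay within 1 kb of it. The summit fold enrichment of all member peaks, a value set by the authors' peak caller, was ranked within each list. The median member peak exceeded 24.4%, 57.6% and 41.6% of the peaks across the WT lists, where the median of each whole list under the same count was 45.9%, 37.4% and 41.6%. In HOM replicates 1 and 3 it exceeded 38.3% and 28.4%, which were also the medians of those lists. The median member peak thus lay above the list median in WT replicate 2, below it in WT replicate 1, and at it in the other 3 lists. Single peaks of Kcnj5, Kcnj3 and Myl7 ranked high. The member peaks had a median width of 291.5, 365.5 and 305.5 bp for WT (whole lists 241, 286 and 291 bp), and 271 and 249.5 bp for HOM replicates 1 and 3 (whole lists 260 and 232 bp).

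**Figure D1:**
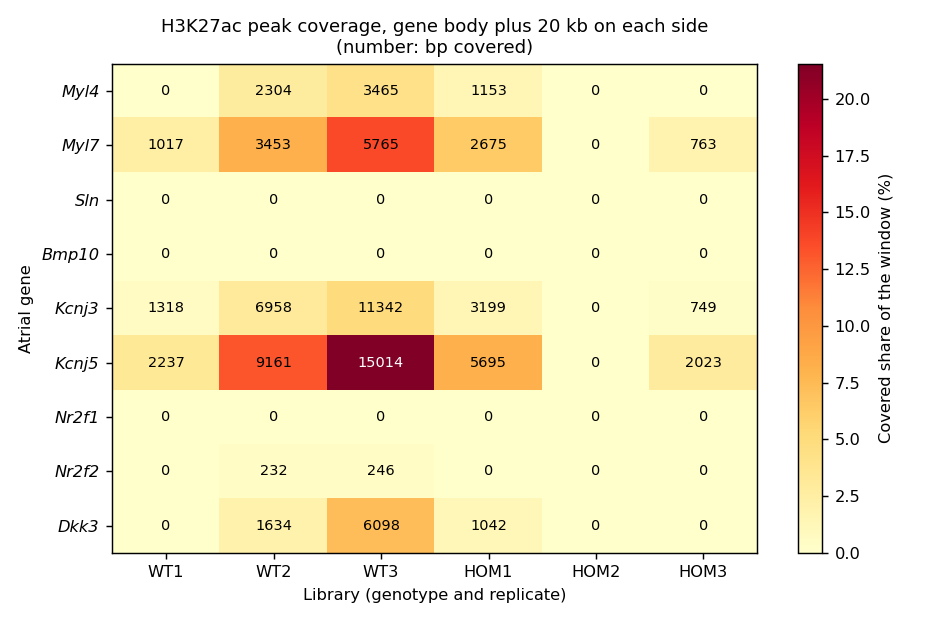
Peak coverage in the window of each atrial gene, for each of the 6 libraries, with the covered length in bp. Kcnj5 has the largest values in the 5 longer lists, from 2023 to 15014 bp, and Sln, Bmp10 and Nr2f1 are at 0 in every library.

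The promoters of 5 members are printed from RefSeq (GRCm38.p6), 250 bases before to 50 bases after the start, 5′ to 3′ along the gene. They were chosen to set 3 promoters that peaks reached beside 2 that no peak reached. The first 3 belong to Kcnj3 (chr2:55435720-55436019, plus strand), Kcnj5 (chr9:32344295-32344594, minus strand) and Myl4 (chr11:104550413-104550712, plus strand), and capitals mark bases covered by peaks in at least 2 libraries. The capitals span 300, 183 and 55 bases of the 300.
Kcnj3: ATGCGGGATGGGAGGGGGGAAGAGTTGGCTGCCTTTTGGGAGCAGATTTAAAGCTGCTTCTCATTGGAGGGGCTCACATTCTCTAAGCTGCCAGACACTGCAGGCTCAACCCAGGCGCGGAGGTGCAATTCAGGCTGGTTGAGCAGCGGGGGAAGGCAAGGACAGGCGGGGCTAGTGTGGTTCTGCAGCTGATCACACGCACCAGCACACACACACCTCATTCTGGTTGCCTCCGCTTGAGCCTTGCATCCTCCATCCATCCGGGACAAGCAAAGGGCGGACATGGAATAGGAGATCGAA
Kcnj5: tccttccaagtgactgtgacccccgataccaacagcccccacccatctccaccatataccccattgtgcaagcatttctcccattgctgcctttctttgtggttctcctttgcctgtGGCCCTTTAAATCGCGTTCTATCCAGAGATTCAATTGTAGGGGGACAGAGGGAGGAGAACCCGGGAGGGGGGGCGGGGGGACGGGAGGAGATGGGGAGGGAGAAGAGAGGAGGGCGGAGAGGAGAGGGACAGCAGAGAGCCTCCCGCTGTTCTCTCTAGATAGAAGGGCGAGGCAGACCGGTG
Myl4: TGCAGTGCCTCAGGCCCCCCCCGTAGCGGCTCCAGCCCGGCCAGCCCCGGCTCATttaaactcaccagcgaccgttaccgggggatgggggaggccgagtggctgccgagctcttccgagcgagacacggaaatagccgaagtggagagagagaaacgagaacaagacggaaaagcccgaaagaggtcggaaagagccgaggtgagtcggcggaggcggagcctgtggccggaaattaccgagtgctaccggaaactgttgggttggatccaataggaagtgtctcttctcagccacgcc

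The other 2 belong to Myl7 (chr11:5898733-5899032, minus strand) and Bmp10 (chr6:87428744-87429043, plus strand). Here capitals mark matches to the motifs searched, which are the TEAD motif in Myl7 and the GATA motif in Bmp10.
Myl7: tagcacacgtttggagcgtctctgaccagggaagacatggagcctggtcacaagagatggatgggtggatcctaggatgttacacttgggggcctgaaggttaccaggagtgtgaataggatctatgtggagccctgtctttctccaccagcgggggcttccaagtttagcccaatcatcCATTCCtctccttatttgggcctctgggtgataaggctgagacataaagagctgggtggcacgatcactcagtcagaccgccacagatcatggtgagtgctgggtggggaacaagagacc
Bmp10: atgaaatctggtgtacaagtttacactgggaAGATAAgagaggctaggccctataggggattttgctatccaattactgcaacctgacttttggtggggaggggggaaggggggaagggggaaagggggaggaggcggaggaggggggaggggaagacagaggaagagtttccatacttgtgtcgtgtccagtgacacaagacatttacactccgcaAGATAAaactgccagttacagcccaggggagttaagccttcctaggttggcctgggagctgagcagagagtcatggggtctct

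The 2 channel genes held most of the covered length of the 9 windows in each of the 5 longer lists. Kcnj5 encodes a subunit of the acetylcholine-activated potassium channel and lies at chr9:32314706-32344380 on the minus strand. Peaks covered 2237, 9161 and 15014 bp of its window across the WT libraries. Across the HOM libraries they covered 5695, 0 and 2023 bp. Its peak coverage was therefore present in every list but the shortest, and the 2 genotypes overlapped. As a share of the window this was 3.21%, 13.1% and 21.5% across WT, then 8.17%, 0% and 2.90% across HOM, higher than in 96.8% to 97.9% of protein-coding genes in the 5 longer lists. In each of those 5 lists Kcnj5 had the largest covered share of the 9 genes and Myl7 the next. Kcnj3, Dkk3 and Myl4 followed in an order that changed between lists, with 3.07%, 1.96% and 2.84% in WT replicate 2, 5.01%, 7.31% and 4.27% in WT replicate 3 and 1.41%, 1.25% and 1.42% in HOM replicate 1.

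Kcnj5 peaks numbered 6, 13 and 22 across WT, then 13, 0 and 5 across HOM. Gene-end peaks made up 1, 3 and 5 of them across WT, then 4, 0 and 1 across HOM, and 1 flanking peak was found in WT replicate 3. All others were internal. The widest measured 581, 2124 and 4810 bp in WT and 1220 and 586 bp in HOM replicates 1 and 3. The summit fold of the highest was 8.07, 10.9 and 16.6 in WT, which placed it at rank 272, 436 and 229 of the whole lists. In HOM replicates 1 and 3 it was 8.30 and 5.46, at rank 604 and 2596. The highest Kcnj5 peak thus exceeded 98.2% to 99.7% of peaks in 4 lists and 70.8% in HOM replicate 3.

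The Kcnj5 peaks formed 2 groups, separated where neighbouring peaks lay more than 3 kb apart. The first group ran from the start into the gene (chr9:32328476-32344508) and covered 2237, 6041 and 9695 bp across WT, then 4700, 0 and 1728 bp across HOM. Within it, touching peaks merged into a region of 5551 bp (chr9:32338958-32344508) that all 5 longer lists contributed to. The second group lay at the 3′ end (chr9:32312436-32323400) and covered 0, 3120 and 5319 bp across WT, then 995, 0 and 295 bp across HOM. WT replicate 1, with more peaks in all than HOM replicate 3, had none of it. Of 23 merged regions in the Kcnj5 window, 15 came from 1 library alone and 5 from at least 3. In the printed promoter the peaks covered 0, 214 and 183 of 300 bases across WT, then 19, 0 and 0 across HOM, and most of the covered length lay inside the gene.

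Kcnj3 encodes the partner subunit of the same channel and lies at chr2:55411798-55598145 on the plus strand. Peaks covered 1318, 6958 and 11342 bp of its window across the WT libraries. Across the HOM libraries they covered 3199, 0 and 749 bp. All were internal by the annotated span, and they numbered 5, 15 and 15 across WT, then 6, 0 and 4 across HOM. The start of the printed promoter, at position 55435970, lies inside that span, so peaks there did not count as gene-end peaks. Counted within 1 kb of that start, peaks covered 498, 1898 and 1937 bp across WT, then 1086, 0 and 374 bp across HOM. Over the 7 members with a start in the promoter table, a peak lay within 1 kb of it at 2, 3 and 3 members across WT (12.3%, 32.5% and 42.7% of 17492 genes in that table), then 3, 0 and 2 across HOM (23.4%, 0.36% and 8.36%), and at 3 members in at least 1 library (44.4%). These were Kcnj3, Kcnj5 and Myl4. The printed Kcnj3 promoter was covered for 173, 300 and 300 of 300 bases across WT, then for 29, 0 and 0 across HOM.

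Most of the Kcnj3 signal lay around that start, between 4.53 kb before and 8.12 kb after it, with 1099, 4728 and 7042 bp covered across WT, then 2246, 0 and 374 bp across HOM. A second group lay 39.5 to 46.1 kb into the gene and covered 219, 2230 and 3819 bp across WT, then 953, 0 and 375 bp across HOM. Each group held a merged region found in all 5 longer lists, of 3669 bp at the start (chr2:55433620-55437288) and 2806 bp in the second group (chr2:55479255-55482060). The highest summit fold was 6.45, 11.3 and 13.0 in WT, above 91.5%, 99.4% and 98.2% of each list. It was 6.04 and 5.04 in HOM replicates 1 and 3, above 83.9% and 52.4%. The gene is long, and its covered share was 0.582%, 3.07% and 5.01% across WT, then 1.41%, 0% and 0.331% across HOM, yet higher than in 76.3% to 82.3% of protein-coding genes in the 5 longer lists.

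**Figure D2:**
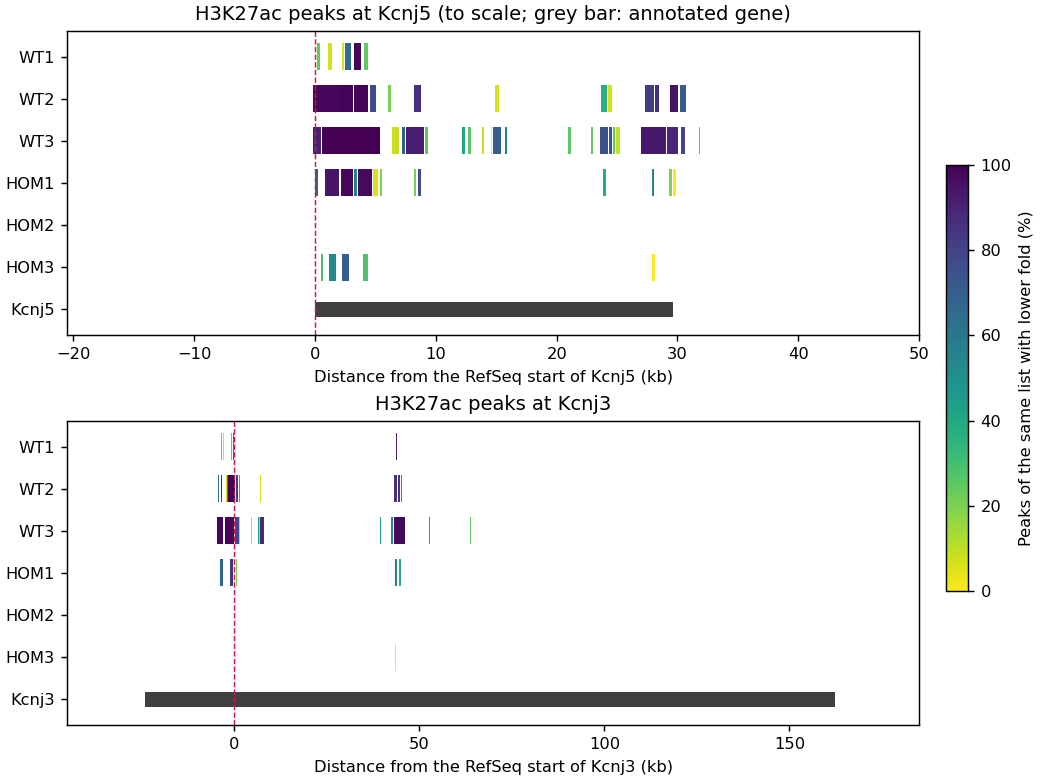
Peaks of the 6 libraries around Kcnj5 and Kcnj3, plotted by distance in kb from the start in the promoter table along the direction of the gene, with 1 row per library and bars for peaks. At both genes peaks sit around the start and again inside or at the far end of the gene, and the row of HOM replicate 2 is empty.

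The muscarinic receptor and G protein genes that act on this channel differed in marking. Of 6 such genes, 3, 5 and 5 had a window peak across WT (31.7%, 57.4% and 66.1% of all genes). Across HOM, 5, 1 and 4 had a window peak (47.1%, 3.14% and 25.2% of all genes). Chrm2, the receptor for acetylcholine on heart muscle, had one in 6 libraries. Gnai2, an inhibitory G protein subunit, and Rgs6, which shortens G protein signalling, had one in 5, and Rgs4 had one in none.

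At the contractile members the peaks lay outside the gene or were limited to the longest lists. Myl7, the atrial regulatory light chain of myosin, lies at chr11:5896637-5898782 on the minus strand and had no peak on the gene body or within its printed promoter in any library. Its window was covered for 1017, 3453 and 5765 bp across WT, then for 2675, 0 and 763 bp across HOM. All of this was flanking. Nearly all of it lay 13.5 to 19.8 kb upstream, around the start of the noncoding RNA gene Gm11967. That stretch covered 1017, 3453 and 5396 bp across WT, then 2509, 0 and 763 bp across HOM, and it held a merged region of 3468 bp found in all 5 longer lists. The only other peaks, of 369 bp in WT replicate 3 and 166 bp in HOM replicate 1, lay at an end of Pold2, a DNA polymerase subunit gene.

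The highest flanking peak of Myl7 had a summit fold of 6.05, 9.67 and 9.86 in WT, above 86.3%, 97.9% and 93.6% of each list, and 6.41 and 6.30 in HOM replicates 1 and 3, above 88.7% and 90.3%. The nearest peak to the gene body lay 15.4, 14.8 and 13.5 kb away in WT and 14.5, 2680 and 15.3 kb away in HOM. The window of Myl7 is short, so these peaks gave it a covered share above 92.4% to 95.7% of protein-coding genes in the 5 longer lists. With flanks of 10 kb in place of 20 kb it held no peak, and the count of members with any acetylation was 5.

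Myl4, the atrial essential light chain, lies at chr11:104546017-104587215 on the plus strand. Its window was covered for 0, 2304 and 3465 bp across WT, then for 1153, 0 and 0 bp across HOM. Peaks were thus seen in the 3 longest lists, in a group at the start and another inside the gene. The group at the start ran from 1.25 to 0.17 kb before it and covered 626 bp in WT replicate 2, 1086 bp in WT replicate 3 and 453 bp in HOM replicate 1. Cdc27, a gene of the anaphase-promoting complex on the other strand, overlaps these peaks and starts beside Myl4, so the peaks cannot be assigned to either gene. The other group, 7.26 to 10.7 kb into the gene and inside the noncoding RNA gene Gm11665, covered 1678, 2005 and 700 bp in the same order. The only peak near an annotated end was in WT replicate 3. It was 374 bp wide, lay 979 bp outside the gene and also overlapped Cdc27. Its summit fold exceeded 41.6% of that list. The printed promoter was reached for 55 and 85 of 300 bases in WT replicates 2 and 3.

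**Figure D3:**
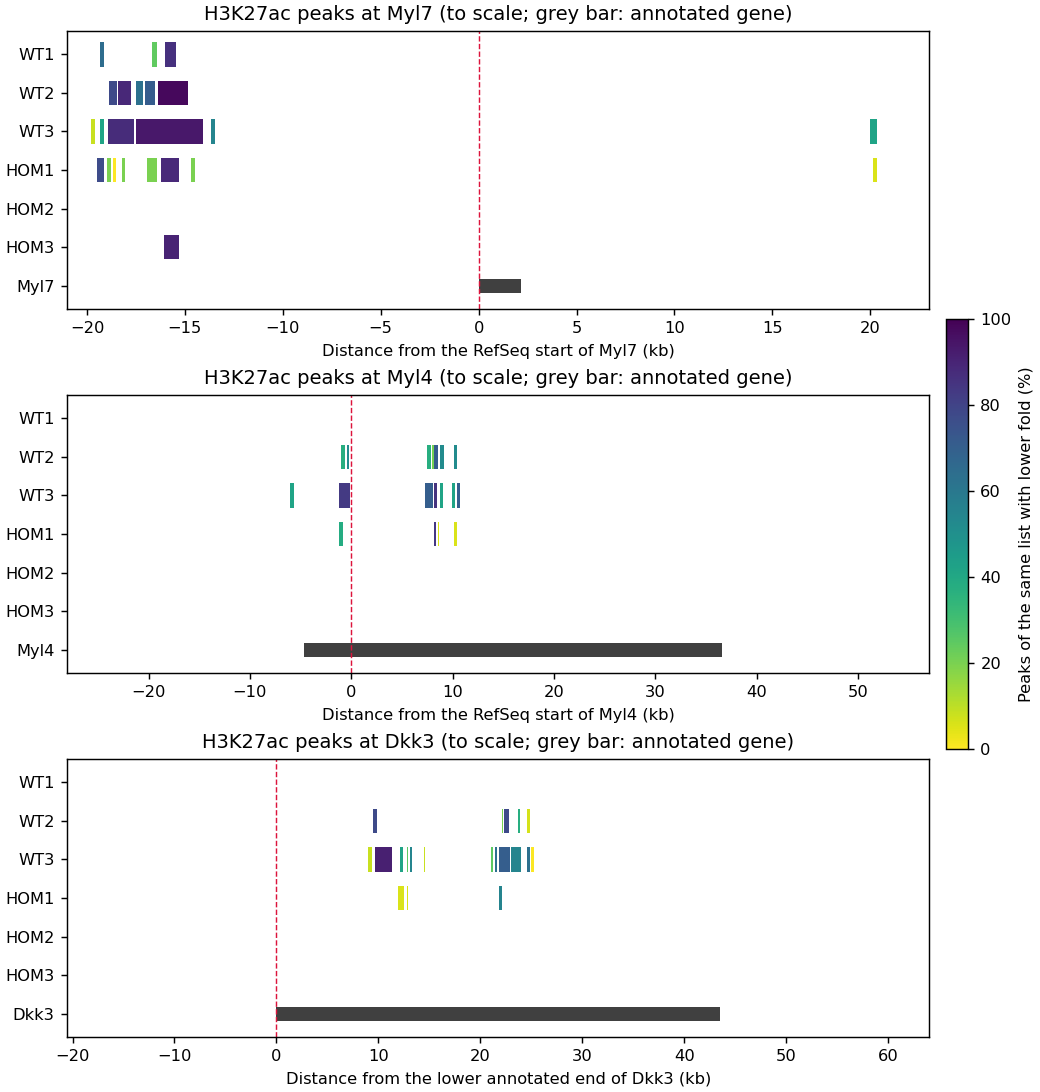
Peaks of the 6 libraries around Myl7, Myl4 and Dkk3, plotted by distance in kb along each gene, with 1 row per library and bars for peaks. The Myl7 peaks lie 13.5 to 19.8 kb upstream of the gene apart from 2 at Pold2, and Myl4 and Dkk3 have peaks in WT replicates 2 and 3 and HOM replicate 1 only.

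Sln encodes sarcolipin, a small inhibitor of the calcium pump of the sarcoplasmic reticulum. Its window (gene body chr9:53850251-53853849) held no peak in any library, and the nearest peak lay 241, 183 and 173 kb away across the WT libraries and 183, 785 and 240 kb away across the HOM libraries. Of 4 listed genes for calcium pumps and their small regulators, 4, 4 and 4 had a window peak across WT (31.7%, 57.4% and 66.1% of all genes). Across HOM, 3, 0 and 3 had a window peak (47.1%, 3.14% and 25.2% of all genes). Atp2a2, the cardiac pump, Atp2a1, its skeletal muscle relative, and Strit1, whose product raises pump activity, had one in 5 libraries, and Mrln, which encodes a pump inhibitor of skeletal muscle, had one in 3 WT and 0 HOM libraries. Within the gene body and 1 kb on each side, Atp2a2 and Strit1 had a peak in 5 libraries. Atp2a1 and Mrln had a peak there in 1.

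The secreted factors Bmp10 and Dkk3 differed. Bmp10, a ligand of the transforming growth factor family made by atrial muscle in the adult mouse, lies at chr6:87428994-87434512 and had no peak in its window. Peaks lay just outside in 2 WT libraries, 22.9 kb from the gene in replicate 1 (412 bp wide) and 22.8 kb in replicate 3 (162 bp wide), and their summit folds of 4.03 and 3.58 exceeded 6.52% and 8.58% of their lists. In WT replicate 2 and HOM replicates 1, 2 and 3 the nearest peak was 238, 386, 996 and 386 kb away. Of 8 genes for its receptors, relatives and signal transducers, 5, 6 and 7 had a window peak across WT (31.7%, 57.4% and 66.1% of all genes). Across HOM, 7, 0 and 3 had a window peak (47.1%, 3.14% and 25.2% of all genes). The receptor gene Bmpr1a, the coreceptor gene Eng and the inhibitor gene Smad6 had one in 5 libraries, and Gdf2, a close relative of Bmp10 made in liver, had one in none. Within the gene body and 1 kb on each side, Bmpr1a and Smad6 had a peak in 5 libraries and Eng in 1.

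Dkk3, a secreted glycoprotein of the dickkopf family, lies at chr7:112116019-112159482. Its window was covered for 0, 1634 and 6098 bp across WT, then for 1042, 0 and 0 bp across HOM. The peaks numbered 5 and 13 in WT replicates 2 and 3 and 4 in HOM replicate 1, and all were internal. They formed 2 groups, at chr7:112125001-112130627 with 378, 3002 and 726 bp covered and at chr7:112137016-112141240 with 1256, 3096 and 316 bp covered, in the order just given. The largest summit folds were 6.04, 8.96 and 4.91. No peak lay within 1 kb of an annotated end.

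The transcription factor genes carried little or nothing. Nr2f2, at chr7:70351946-70366746, had 1 internal peak of 232 bp in WT replicate 2 and 1 of 246 bp in WT replicate 3, which did not overlap each other. Their summit folds of 3.22 and 4.48 exceeded 0.406% and 41.6% of the lists. The other 4 libraries had no peak in the window. Outside it, 42.7 to 43.0 kb above the gene and within the noncoding RNA gene B130024G19Rik, a peak was found in all 5 longer lists. That peak was 351, 702 and 578 bp wide across the WT libraries and 326 and 262 bp wide in HOM replicates 1 and 3, and its summit fold exceeded 64.8% to 89.0% of each list. The related gene Nr2f1, at chr13:78188971-78198873, had no peak in its window, and the nearest lay 480 kb away in WT replicate 3 and 750 kb away in the others.

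**Figure D4:**
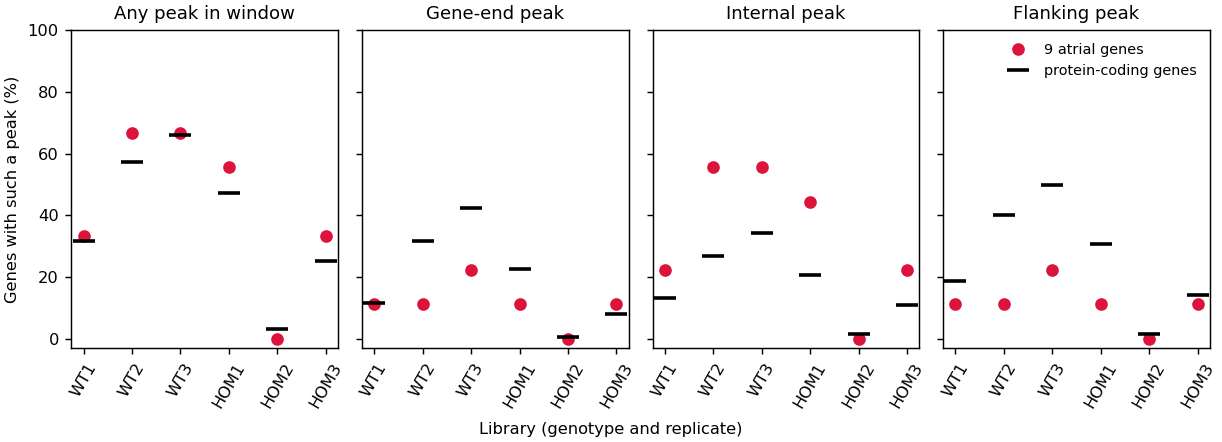
Share of members with a peak of each class beside the share of all protein-coding genes, in percent, for each library. Both shares follow the length of the list, apart from ties in the member share. For gene-end and for flanking peaks the member share is 11.1% in WT replicates 1 and 2 and HOM replicates 1 and 3. The member share for gene-end peaks lies below that of all genes in every library but HOM replicate 3. The gap is narrow in WT replicate 1 and HOM replicate 2.

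A set of 5 atrial genes was set beside a ventricular counterpart within each library, so that list length bore on both genes of a pair, using the covered share of the window. Sln was lower than Pln, the ventricular inhibitor of the calcium pump, which had 17.8%, 32.6% and 47.5% covered across WT, then 27.2%, 0% and 11.7% across HOM. The difference was -22.8 percentage points, from 0% for Sln and 22.8% ± 16.7 (SD, n = 6) for Pln, with a two-sided exact sign-flip p of 0.0625 (adjusted over the 5 pairs, 0.078). That is the smallest p that 5 libraries with a difference allow. Most of the Pln coverage lay outside the Pln gene body. Of 8604, 15756 and 22949 bp covered in its window across WT, 0, 385 and 4834 bp lay in the gene body. Of 13143, 0 and 5662 bp across HOM, 217, 0 and 0 bp did. Nr2f2, with 0.145% ± 0.225 (SD, n = 6), was lower than Irx4, a ventricular transcription factor gene with 25.2% ± 18.4, in 6 of 6 libraries. The exact sign-flip p of 0.03125 for the difference of -25.0 points became 0.078 after Benjamini-Hochberg adjustment over the 5 pairs. Irx4 had 16.2%, 41.0% and 47.9% covered across WT, then 33.3%, 0.198% and 12.5% across HOM.

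Kcnj3 had 1.74% ± 1.95 (SD, n = 6) against 10.4% ± 10.7 for Kcnj2, the main inward rectifier channel gene of ventricular muscle. It was lower in all 5 libraries with a peak at either gene (exact sign-flip p = 0.0625, adjusted p = 0.078). Kcnj2 had 4.22%, 18.5% and 27.5% across WT, then 9.96%, 0% and 2.11% across HOM. Myl4 had 1.42% ± 1.80 against 4.98% ± 6.49 for Myl3, the ventricular essential light chain, again lower in those 5 libraries (exact sign-flip p = 0.0625, adjusted p = 0.078). Myl7 had 5.41% ± 5.06 against 8.37% ± 9.37 for Myl2, the ventricular regulatory light chain, lower in 4 libraries and higher in WT replicate 1 (exact sign-flip p = 0.1875, adjusted p = 0.1875). With windows of the gene body and 1 kb on each side, where the flanking peaks of Myl7 fall away, the Myl7 difference was -20.0 points. The corresponding values were -16.0 for Myl4, -14.2 for Sln, -26.0 for Kcnj3 and -43.3 for Nr2f2, and 1 kb windows thus gave larger differences except for Sln. With every list limited to the shortest, the differences were smaller, at -0.378 points for Kcnj3 (exact sign-flip p = 1), 0 for Myl4 (exact sign-flip p = 1), -11.5 for Sln, -11.0 for Nr2f2 and 0.799 for Myl7. With HOM replicate 2 left out and equal lists they were -6.53 for Kcnj3, -1.44 for Myl4, -21.7 for Sln, -24.9 for Nr2f2 and -0.288 for Myl7. Without WT replicate 3 they were -1.81 for Myl4 and -1.39 for Myl7. None of the 5 pairs passed 0.05 after adjustment.

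**Figure D5:**
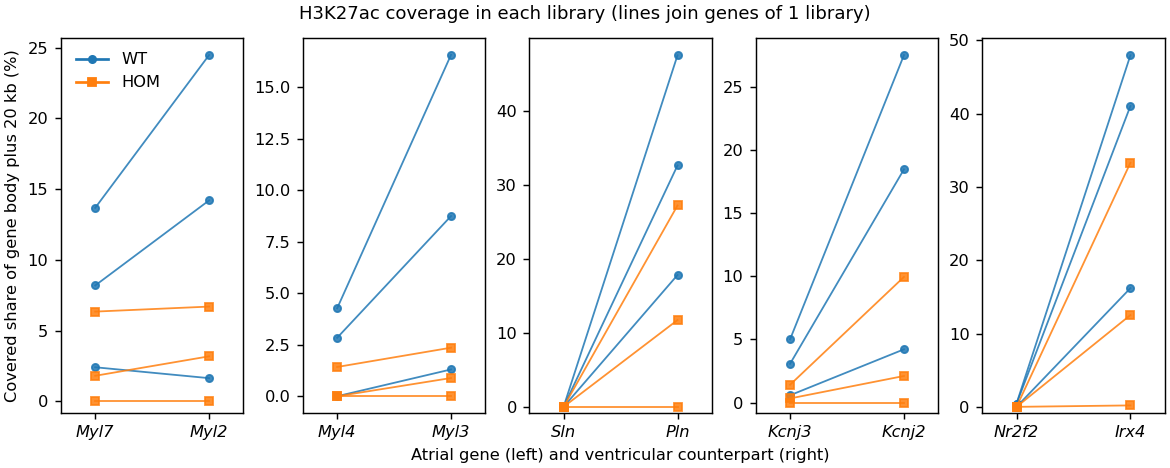
Covered share of the window, in percent, for 5 atrial genes and their ventricular counterparts, with lines joining the 2 genes of a pair in each library. The vertical scale differs between panels, and the ventricular gene is higher in every library where the 2 genes differ, except for Myl7 and Myl2 in WT replicate 1.

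Most members were less covered on average in HOM than in WT, and none of these differences passed the test. For Kcnj5 the mean covered length was 8804 ± 6396 bp for WT and 2573 ± 2887 bp for HOM (SD, n = 3 libraries; two-sided exact permutation p = 0.2). For Kcnj3 it was 6539 ± 5025 bp and 1316 ± 1673 bp (exact permutation p = 0.2), and for Myl7 3412 ± 2374 bp and 1146 ± 1378 bp (exact permutation p = 0.2). With peaks at the ends of other genes left out, the Myl7 difference of -2266 bp was -90 bp (exact permutation p = 0.7), and that of Myl4 was -1011 bp in place of -1539 bp. Dkk3 had 2577 ± 3157 bp and 347 ± 602 bp, and Myl4 1923 ± 1764 bp and 384 ± 666 bp, with an exact permutation p of 0.4 for each. Nr2f2 had 159 ± 138 bp and 0 bp, also with an exact permutation p of 0.4. The Benjamini-Hochberg adjusted p over all protein-coding genes was 0.757 for these 6 genes, and 3 libraries against 3 cannot give a p below 0.1. WT had the higher mean at 67.1% of all protein-coding genes and HOM at 0.617%, so the direction of the 6 members is also that of most genes with any peak. The median HOM minus WT difference was -1539 bp over the 9 members and -333 bp over all protein-coding genes.

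None of the members separated the genotypes in covered length, against 3.74% of all genes with every WT library above every HOM library and 0% the other way round. Without HOM replicate 2 the differences were -4945 bp for Kcnj5, -4565 bp for Kcnj3, -1693 bp for Myl7, -2056 bp for Dkk3 and -1347 bp for Myl4. Leaving out WT replicate 3, the longest list, moved them to -3126, -2822, -1089, -470 and -768 bp in the same order. Leaving out WT replicate 1 moved them to -9515, -7834, -3463, -3519 and -2500 bp. Within the pair of libraries with many Y-chromosome peaks, WT replicate 1 and HOM replicate 1, the direction was the reverse, with 3458 bp more in HOM for Kcnj5, 1881 bp for Kcnj3, 1658 bp for Myl7, 1153 bp for Myl4 and 1042 bp for Dkk3. Among the other 4 libraries the HOM minus WT difference was -11076 bp for Kcnj5, -8776 bp for Kcnj3, -4228 bp for Myl7, -3866 bp for Dkk3 and -2885 bp for Myl4 (exact permutation p = 0.333 for each, the lower limit of 2 against 2). Peaks in bulk nuclei do not tell fewer acetylated nuclei from less acetylation in each, and list length and genotype cannot be told apart here.

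Scaled to the length covered genome wide, Kcnj5 had 334, 290 and 270 bp per Mb across WT, then 331, 0 and 445 bp per Mb across HOM, so the groups overlapped. Kcnj3 had 197, 220 and 204 bp per Mb across WT, then 186, 0 and 165 bp per Mb across HOM. Every HOM value for Kcnj3 lay below every WT value, the means being 207 ± 11.9 for WT and 117 ± 102 for HOM (SD over 3 libraries each) and a two-sided exact permutation p of 0.1, which is the lower limit of this design. Such a separation with WT higher was found at 6.28% of all protein-coding genes and with HOM higher at 0.174%. Without HOM replicate 2 the Kcnj3 difference was -31.5 bp per Mb. On this scale WT had the higher mean at 59% of all genes and HOM at 8.71%, and WT was higher at 6 of the 9 members. Without HOM replicate 2, HOM was higher by 90.3 bp per Mb at Kcnj5 and by 40.2 bp per Mb at Myl7. Myl7 had 152, 109 and 104 bp per Mb across WT, then 156, 0 and 168 bp per Mb across HOM, and the groups overlapped.

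Among 12 other genes of atrial muscle or the conduction system, 8, 8 and 11 had a window peak across WT (31.7%, 57.4% and 66.1% of all genes). Across HOM, 8, 2 and 7 had a window peak (47.1%, 3.14% and 25.2% of all genes). Gene-end peaks were found at 2, 4 and 7 of them across WT (11.5%, 31.8% and 42.2% of all genes). Across HOM they were found at 3, 0 and 2 (22.7%, 0.379% and 7.99% of all genes). Kcnk3, a background potassium channel gene, and Tbx5, a transcription factor gene active in the atria and left ventricle, had a window peak in 6 libraries. Hcn4, the pacemaker channel gene, had one in 5. The list holds Nppa, one of the deleted genes by the label, whose window of 20 kb on each side reaches beyond the gene. It was covered for 0.776%, 3.68% and 11.3% across WT, then 9.44%, 0% and 3.45% across HOM, and Nppa is thus counted in 2 HOM libraries. A peak lay within 1 kb of an annotated Nppa end in 4 libraries, so at least 1 of them was HOM. Of 8 ventricular genes, 6, 7 and 7 had a window peak across WT, then 7, 1 and 6 across HOM, with 4, 6 and 7 and 7, 0 and 6 at a gene end, and Hand1 had one in none.

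Markers of other cell types were examined beside these results. For comparison, 31.7%, 57.4% and 66.1% of all protein-coding genes had a window peak across WT, then 47.1%, 3.14% and 25.2% across HOM. At a gene end the shares of all genes were 11.5%, 31.8% and 42.2% across WT, then 22.7%, 0.379% and 7.99% across HOM. Of 5 venous and endocardial genes, 2, 3 and 4 had a window peak across WT, then 3, 0 and 0 across HOM, with Ephb4 and Nfatc1 marked in 4 libraries, Npr3 in 3 and Ackr1 in none. Of these 5 genes, 1, 1 and 2 had a gene-end peak across WT, then 1, 0 and 0 across HOM. Of 7 endothelial genes, 1, 4 and 5 had a window peak across WT, then 2, 0 and 1 across HOM, and none had a gene-end peak. Pecam1 was marked in 5 libraries, and Tie1 and Emcn in none. Of 7 fibroblast genes, 0, 1 and 3 had a window peak across WT, then 1, 0 and 0 across HOM, and none had a peak on the gene body or within 1 kb of it. Col1a2, Pdgfra, Dcn and Lum were at 0 throughout. The part of other cells in the peaks of Dkk3 and Nr2f2, which were found in the longest lists, was not tested.

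Smooth muscle and pericyte genes had window peaks at 2, 3 and 4 of 5 across WT, then at 2, 0 and 1 across HOM, with Cspg4 marked in 5 libraries and Rgs5 in none. Gene-end peaks lay at 1, 2 and 2 of them across WT, then at 1, 0 and 1 across HOM. Immune genes had window peaks at 2, 3 and 3 of 5 across WT, then at 3, 0 and 2 across HOM, with Cd68 and Spi1 marked in 5 libraries and Ptprc and Csf1r in none. Of the immune genes, 0, 2 and 2 had a gene-end peak across WT, then 2, 0 and 1 across HOM. Neural genes had window peaks at 1, 1 and 2 of 4 across WT, then at 1, 0 and 1 across HOM, with S100b marked in 5 libraries. Epicardial genes had them at 0, 1 and 1 of 3 across WT, then at 1, 0 and 0 across HOM, with Msln marked in 3 libraries and Wt1 and Upk3b in none. The 5 genes of other organs had no window peak in any library.

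The genes whose covered share ranked most like that of Kcnj5 over the 6 libraries were Abcc1, Yap1 and Wbp1l, at distances of 0.790, 0.991 and 1.07 percentile points. For Kcnj3 they were Steap3, Wnt5b and Wdr59, at 2.97, 3.05 and 3.15. For Myl7 they were Fam160b2, Fyco1 and Hr, at 0.803, 1.21 and 1.25. The distance is Euclidean over the within-library percentiles.

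The printed promoters also differed in composition. GC content was 58.3% for Kcnj5, 57.7% for Kcnj3, 61.7% for Myl4, 53.7% for Myl7 and 53% for Bmp10, with a median of 52.7% over 32851 promoters. They held 10, 10, 25, 5 and 3 CpG dinucleotides in that order, with a median of 7 over all promoters. Promoters that were not printed and that no peak reached varied widely. Nr2f1 had 68% GC and 23 CpG at its start at position 78198873, and 43% and 4 at its start at 78196449. Nr2f2 had 49.7% and 2. Composition thus did not separate the promoters that peaks reached from the others. The motifs searched on both strands were AGATAA for GATA factors, AGGTGT for T-box factors, GGAATG for TEAD factors, AGGTCA for nuclear receptors, TAAAAATA for MEF2 and TATAAA for the TATA box. They were held by 11.2%, 13.7%, 14.7%, 16.3%, 2.72% and 13.6% of all promoters. Bmp10 had AGATAA at -219 and -33 relative to the start, Myl7 had the TEAD motif on the other strand, as CATTCC, at -70, and Kcnj3 had the T-box motif on the other strand, as ACACCT, at -38. Kcnj5 and Myl4 had none of the 6. A match describes the letters and is no sign of binding.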

How the data were processed

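H3K27ac CUT&RUN peak lists of 6 libraries, 3 per genotype, were analysed. Alignment and peak calling are represented in the submitters' processing notes by the names BWA and MACS2 and the genome build mm10. Their versions are not given in the sources used here. Each library has its own list, deposited by the authors, and replicates were not pooled. Their columns have the layout of a narrow peak file without a header line, and for each peak the deposited lists give a score, a summit fold enrichment (a ratio), a −log10 p-value and a −log10 q-value. These are the authors' values and were used within a list to describe, rank and filter. Read counts are not among the columns, the depth is therefore unknown, and no count model was fitted.

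Gene spans were those of RefSeq (GRCm38.p6), and 9 of 9 member symbols matched. Starts and sequences came from the RefSeq promoter table, which holds 7 members. Sln and Dkk3 are not in it. Positions are 1-based. Peaks were united within a library for covered length, and the within-library rank counts peaks of lower fold. Peaks closer than 3 kb were grouped. Genotypes were compared with a two-sided exact permutation test over all 21887 protein-coding genes with Benjamini-Hochberg adjustment, and gene pairs with a two-sided exact sign-flip test over libraries. Same-numbered libraries did not deviate together (r from -0.363 to -0.187 over 14818 genes), and the numbers were not used as a block in the main test. The values compared also depend on list length, so r cannot tell whether same-numbered libraries shared a batch.

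The members, gene lists, pairs and motifs were chosen with earlier results of these data known, and carry no independent support. All members, their pair partners, and from each list up to 3 genes marked in most libraries (ties alphabetical) and the genes marked in none are named, with the genes at member peaks and the 3 nearest in pattern. Some genes that this rule names are not reported here. Alternatives were stronger peaks, equal list lengths, a minimum −log10 q of 5, flanks of 10 and 50 kb, other gene-end windows, peaks with 50% of their length in the window, peaks at the ends of other genes left out, length per Mb covered, pairs over the gene with 1 kb, each library left out and the replicate block. After the data were seen, 5 settings were added: starts in the promoter table, the gene with 1 kb, the replicates numbered 1 alone, the others alone, and length per Mb without HOM replicate 2. The covered-length and genotype permutation steps were tested on simulated data. Software was Python 3.11.15 with pandas 2.3.3, numpy 2.4.6, matplotlib 3.10.9 and scipy 1.17.1.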

Additional observations from a re-analysis of the deposited data

How the results depend on the processing

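Of 277 alternative values, 249 were classed as unchanged. For counts this included small changes from the main count. For differences it meant no reversal and the same side of 0.05. Genotype differences could not cross 0.05, since 3 libraries against 3 cannot give a p below 0.1. Only a reversal could change their class, so the total says little about their stability. Among the 277 values, 66 were genotype differences of 0. With every list limited to the 1462 peaks of the shortest, 3 members had a window peak, 0 had one in at least 2 libraries of each genotype and 1 had a gene-end peak, and the Myl7 and Myl2 difference turned to 0.799 points (exact sign-flip p = 0.5). The count of members marked in at least 2 libraries of each genotype, 3 in all libraries, was 1 at a −log10 q of at least 5 and ranged from 0 (without HOM replicate 1 or without HOM replicate 3) to 3 with 1 library left out. That 0 was fixed in advance, since HOM replicate 2 had no peak at any member. The gene-end count of 2 was 1 with equal lists without HOM replicate 2, at that −log10 q, and within 500 bp, and from 1 (without WT replicate 3) to 2 with 1 library left out. The Nr2f2 and Irx4 difference was -22.6 with the 50% of peaks of highest fold, -24.9 with equal lists and -19.8 at that −log10 q, and from -30.0 to -20.6 with 1 library left out, each with an exact sign-flip p of 0.0625, the smallest that 5 differing libraries allow. With flanks of 50 kb the Sln and Pln difference was -14.7 (exact sign-flip p = 0.03125).

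The genotype difference reversed between WT replicate 1 and HOM replicate 1 alone, to 1153 bp for Myl4, 1658 bp for Myl7, 1881 bp for Kcnj3, 3458 bp for Kcnj5 and 1042 bp for Dkk3. Per Mb covered and without HOM replicate 2 it reversed to 40.2 bp for Myl7 and 90.3 bp for Kcnj5. The cause was not tested. The replicate block left Kcnj5 at -6231 bp, with an exact sign-flip p of 0.5 where 3 pairs allow 0.25 at least. The lists give peaks and no reads, so a window without a peak is not shown to lack acetylation, and the short lists limit every count.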
